A study of Mus musculus with 33 samples.

Results

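A set of 7 genes that are widely used to follow the oligodendrocyte lineage was described in cultures of mouse retinal progenitor cells: Olig2, Olig1, Nkx2-2, Pdgfra, Cspg4, Mbp and Ptprz1. The set, 7 of the 47729 genes in the count tables, was chosen from earlier results on the same libraries, in which the read counts of Olig2 differed widely between cone and rod cultures on days 12, 21 and 35. The Olig2 levels after day 0 are therefore given as a description with no test. Of the 7, 6 passed the count filter and were among the 18150 genes tested, and Nkx2-2 did not.

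The study took retinal progenitor cells of the C57BL/6J mouse strain from the retina at embryonic day 14 and made 33 RNA sequencing libraries, 3 for each of 11 groups. On day 0 there were untreated cells, cone primed cells (cone induction with COCO protein, a secreted antagonist of BMP, TGF-beta and Wnt signals) and rod primed cells (rod induction with taurine and retinoic acid). Cone and rod cultures were then each sampled on days 5, 12, 21 and 35 under the same induction, so the treatment differed between the cultures throughout and no untreated culture of a later day was analysed here. The labels do not say whether the 3 libraries of a group came from separate animals or cultures, so p-values measure the spread between these libraries, which may be technical.

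In the central nervous system, the basic helix-loop-helix factors Olig2 and Olig1 and the homeodomain factor Nkx2-2 act in ventral progenitors and in the cells that become oligodendrocytes. Their precursors carry the PDGF receptor Pdgfra and the proteoglycan Cspg4 (NG2), and the maturing cells make myelin basic protein, Mbp. Each gene has other sites of expression. Olig2 marks neurogenic progenitors in the embryonic retina, Pdgfra is found in mesenchyme, Cspg4 in pericytes, and the receptor phosphatase Ptprz1 in radial and other glia. The Mbp gene also makes golli transcripts from an upstream start, in neurons and immune cells. The mouse retina itself normally contains no oligodendrocytes.

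The libraries held 7511837 to 19166442 reads counted in genes. Levels are given as CPM, the read counts scaled to library size by edgeR with trimmed-mean factors, and levels of different genes are compared only per kb of exon. A difference was called at an adjusted p under 0.05 in edgeR's quasi-likelihood test, with Benjamini-Hochberg adjustment over all 18150 genes. A count of 0 over the 3 libraries of a group allows a level of up to 3 counts, which is 0.0757 CPM in the rod day 35 group. Intervals and floors cover counting error only. In these bulk samples, fewer cells of a type and less RNA per cell cannot be told apart.

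The lineage name was checked against its defining genes, and several of these were at or near 0. Sox10, the factor that precursors and mature oligodendrocytes both carry, had 10 reads over all 33 libraries and at most 2 in any library. The myelin genes Mog, Mag and Mobp had 0, 11 and 4 reads in all. Gpr17, a receptor of committed precursors, had 33 reads in all and at most 5 in a library, and Neu4 had 1 read. Cnp and Myrf, which have wider expression, had reads in all 33 libraries (10216 and 456 in all). Opalin had 115 reads in all and up to 45 in a library, and Bcas1 had 47 in all. A list of 24 precursor genes, headed by Cntn1 and Sulf1 and with Sox10, Gpr17 and Neu4 among them, summed to 898 to 1103 CPM in untreated cells. In the other groups that sum was 923 to 3154 CPM. The 7 retinal progenitor genes Pax6, Rax, Six3, Six6, Lhx2, Sox2 and Hes1, a list drawn up after the data were seen, were detected in every group. Their sum was 1010 to 1056 CPM in untreated cells and 754 to 1319 CPM in the other groups. Such sums do not name a cell type. Olig2 and the 6 genes chosen with it are therefore described as single genes below and not as the signature of a cell type.

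**Figure D1:**
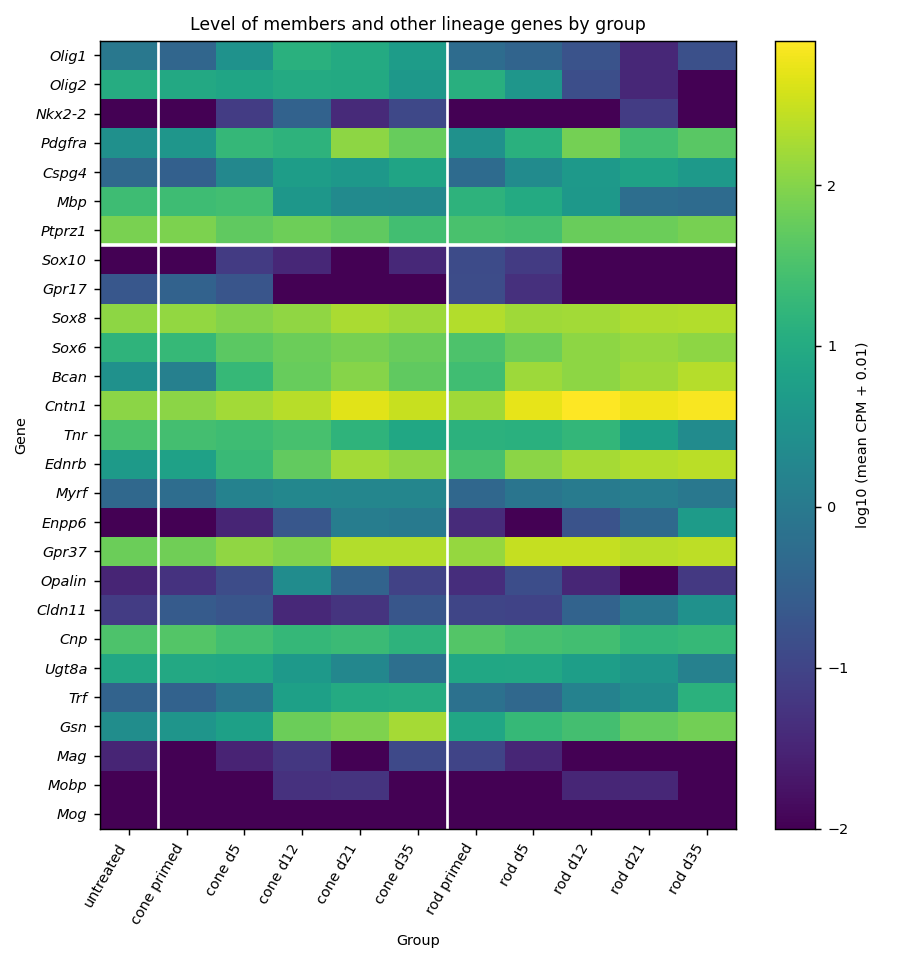
Mean level by group (columns) of the 7 genes (above the horizontal white line) and of other genes of the oligodendrocyte lineage (below it), as log10 of mean CPM plus 0.01 over 3 libraries. The colours compare groups within a row and not genes, since CPM is not scaled by length. Mog is at 0 in every column, Sox10 does not exceed 0.124 CPM in any, and the Olig2 row goes to 0 at the right, in rod cultures.

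The stretch just before the annotated start is shown for 2 members, Olig2 because the set was chosen from its difference between the cultures and Ptprz1 because it was the member called after rod priming. Both are the 250 bases before the RefSeq start on the plus strand of GRCm38.p6, read 5′ to 3′, at chr16:91225300-91225549 for Olig2 and chr6:22875252-22875501 for Ptprz1. Capitals mark the motif TATAAA.
Olig2: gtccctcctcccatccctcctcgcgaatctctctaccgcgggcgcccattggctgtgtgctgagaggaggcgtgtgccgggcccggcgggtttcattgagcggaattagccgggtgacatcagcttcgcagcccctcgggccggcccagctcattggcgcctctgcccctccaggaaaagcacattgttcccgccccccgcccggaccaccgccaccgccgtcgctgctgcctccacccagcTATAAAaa
Ptprz1: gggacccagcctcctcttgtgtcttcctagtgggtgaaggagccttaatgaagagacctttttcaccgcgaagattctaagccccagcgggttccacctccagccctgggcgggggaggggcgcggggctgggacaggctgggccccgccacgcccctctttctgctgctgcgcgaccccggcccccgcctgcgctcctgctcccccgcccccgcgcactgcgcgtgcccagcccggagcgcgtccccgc
The RefSeq table held 5 of the 7 genes. The Olig2 stretch was 66.8% GC and the Ptprz1 stretch 71.6%, against a median of 52.4% over 32851 windows of the same length. Each stretch was searched on both strands for AGGTCA (the hexamer that retinoic acid receptors and other nuclear receptors bind), for the direct repeat of it named DR5, for the E-box CANNTG that helix-loop-helix factors such as Olig2 bind, and for the TATA motif shown in capitals. The hexamer occurs in 14.0% of all windows and in none of the 5 members, the direct repeat (which contains the hexamer) in 0.00913% and in none, and the E-box in 66.2%. Nkx2-2 had 3 matches to the E-box and Pdgfra 1, and Olig2, Cspg4 and Ptprz1 had none in this window. The TATA motif, present in 12.4% of windows and overlapping none of the others there, starts 8 bases before the annotated start of Olig2, at position -8.

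Olig2 (ENSMUSG00000039830, protein-coding, GRCm38 chr16:91225550-91228677, plus strand) was present in progenitors on day 0 and was kept in cone cultures, while its counts went to 0 in rod cultures. Untreated cells had 11.6, 7.94 and 12.5 CPM, cone primed cells 10.3, 9.46 and 7.44, and rod primed cells 14.1, 13.3 and 8.71. The 3 groups overlapped, and none of the 3 comparisons among them was called (adjusted p of 0.624 for cone against rod primed, 0.839 for rod primed against untreated and 1.0 for cone primed against untreated). In cone cultures the libraries had 8.89, 5.35 and 8.83 CPM on day 5, 16.4, 7.69 and 4.79 on day 12, 6.17, 8.90 and 13.7 on day 21, and 5.04, 2.49 and 4.84 on day 35. The cone libraries on days 5, 12 and 21 overlapped with cone primed cells, and those on day 35 lay below them.

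In rod cultures Olig2 was at 3.93, 3.36 and 3.75 CPM on day 5, below all 3 cone libraries of that day and all 3 rod primed libraries. On day 12 the raw counts were 4, 0 and 2, on day 21 they were 0, 1 and 0, and on day 35 all 3 libraries had 0. The cone libraries of the same days held 62 to 141, 47 to 185 and 29 to 60 counts, so the groups did not overlap on any of these days. Over all genes tested, cone and rod libraries did not overlap for 32.8% of genes on day 5, 22.3% on day 12, 24.7% on day 21 and 27.9% on day 35. Cone cells were 422-fold above rod cells on day 21, with an exact 95% counting interval of 75.3 to 16730, and at least 54.7-fold above them on day 35. These bounds leave out the spread between libraries and the choice of Olig2 for this difference, and are not a test. From rod primed cells to rod cultures on day 35 the level was at least 155-fold lower. Ordered by mean, rod primed (12.0 CPM), untreated (10.7), cone day 12 (9.64), cone day 21 (9.59), cone primed (9.07) and cone day 5 (7.69) cells followed each other with overlapping libraries. Cone day 35 (4.12) and rod day 5 (3.68) overlapped with each other and lay below cone day 5, and rod days 12, 21 and 35 (0.143, 0.0257 and 0 CPM) came last.

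**Figure D2:**
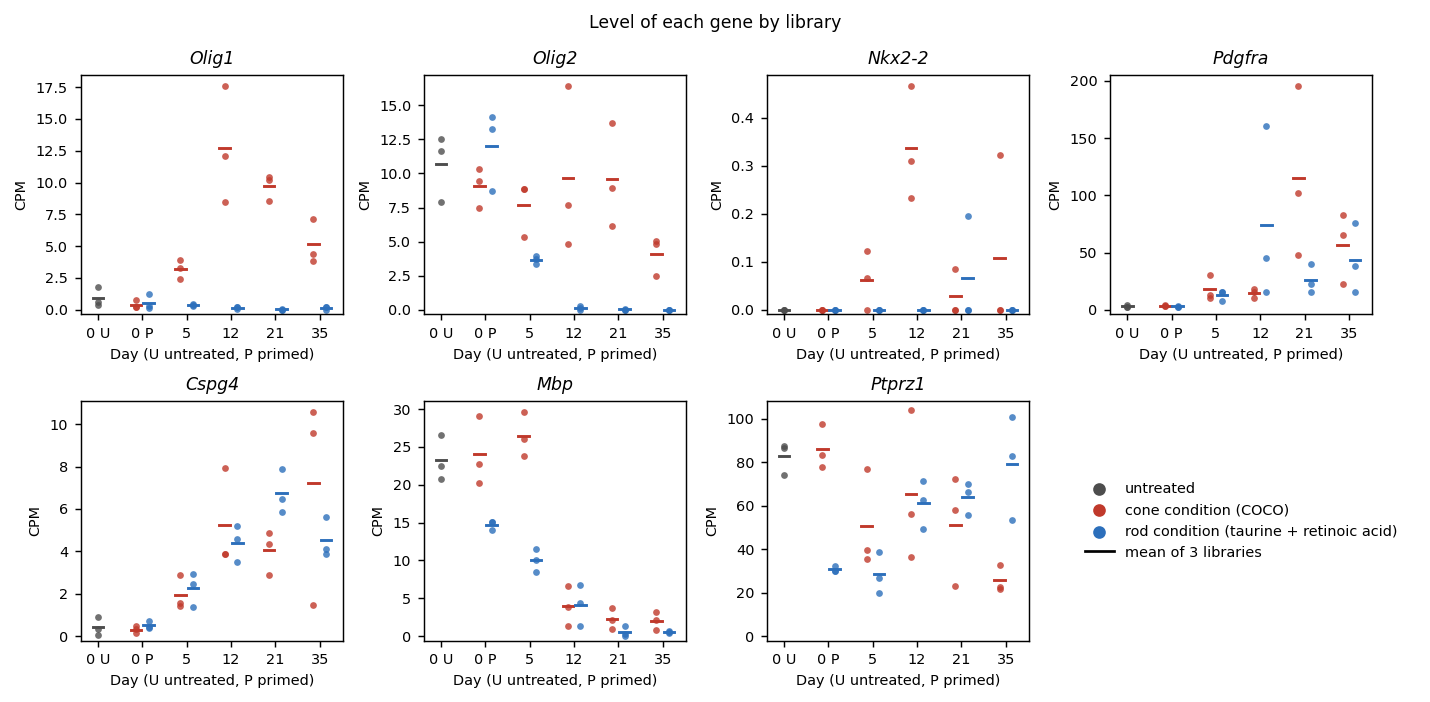
CPM of each gene in each of the 33 libraries (points) and the mean of 3 libraries (bars) by day, on linear axes that differ between panels. Olig2 and Olig1 stay between 2.43 and 17.6 CPM in cone cultures of days 5 to 35 and lie near 0 in rod cultures from day 12 on, while Mbp falls in both.

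Olig1 (ENSMUSG00000046160, chr16:91269772-91271933), the neighbouring gene of the same family, differed from Olig2 on day 0 and resembled it in later cultures. Untreated cells had 0.384, 0.600 and 1.77 CPM, cone primed cells 0.755, 0.242 and 0.210, and rod primed cells 0.136, 1.21 and 0.269, all overlapping. Per kb of exon, Olig1 was at 0.424 CPM in untreated cells where Olig2 was at 4.23. In cone cultures Olig1 was at 3.88, 2.43 and 3.25 CPM on day 5 and at 17.6, 12.1 and 8.51 on day 12. It had 8.53, 10.4 and 10.2 CPM on day 21 and 7.17, 3.86 and 4.36 on day 35. Every cone library of these days lay above every day 0 library. On day 12 the cone level per kb of exon was 5.89 CPM for Olig1 and 3.81 for Olig2.

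Against cone primed cells, Olig1 rose by 3.04 ± 0.60 (SE) on the log2 scale on day 5 (adjusted p = 0.000677), by 5.04 ± 0.59 on day 12 (adjusted p = 7.995e-08) and by 3.73 ± 0.59 on day 35 (adjusted p = 5.636e-06), in edgeR's quasi-likelihood test. Of all genes, 22.3%, 48.4% and 57.7% were called in these comparisons. Rod cultures had between 0 and 5 counts of Olig1 in each library of days 5 to 35. On day 21 they held 1 count in all against 16 in rod primed cells, a ratio of 23.2 with a counting interval of 3.61 to 973. That fall was called (adjusted p = 0.00268), where 50.8% of all genes were, and it was not without rod primed replicate 2 (adjusted p = 0.0846). On day 35 the rod libraries held 0, 3 and 3 counts, and the difference from rod primed cells was not called (adjusted p = 0.0572).

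Olig1 was the member called in cone against rod at every day from 5 to 35. The log2 difference was 3.14 ± 0.58 on day 5 (adjusted p = 0.000816), 6.18 ± 0.63 on day 12 (adjusted p = 3.06e-07) and 5.00 ± 0.65 on day 35 (adjusted p = 7.124e-06), with no overlap between the 3 cone and 3 rod libraries on any of these days. On day 21 the cone libraries held 325 counts and the rod libraries 1, a ratio of 409 with a counting interval of 72.8 to 16180 (adjusted p = 2.93e-07). Averaged over the 4 days, the difference was 5.62 ± 0.33 (adjusted p = 1.417e-12), and 5.13 with day 21 at the low end of its interval. The calls at each of these days remained without any single library. For comparison, the Olig2 values averaged over the same days gave 4.76 on the log2 scale with days 21 and 35 at their bounds.

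On day 0, 1 of the 6 tested members was called between cone and rod primed cells (Ptprz1), where 7.27% of all genes tested were called. After day 0, with Olig2 set aside, 5 members were tested. On day 5 Olig1 was called, where 9.28% of all genes were. Day 12 had Olig1 and Pdgfra (10.1% of all genes), day 21 the same pair (9.0%), and day 35 Olig1 and Ptprz1 (12.3%). In the mean of days 5 to 35 Olig1 and Mbp were called, where 27.8% of all genes were.

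**Figure D3:**
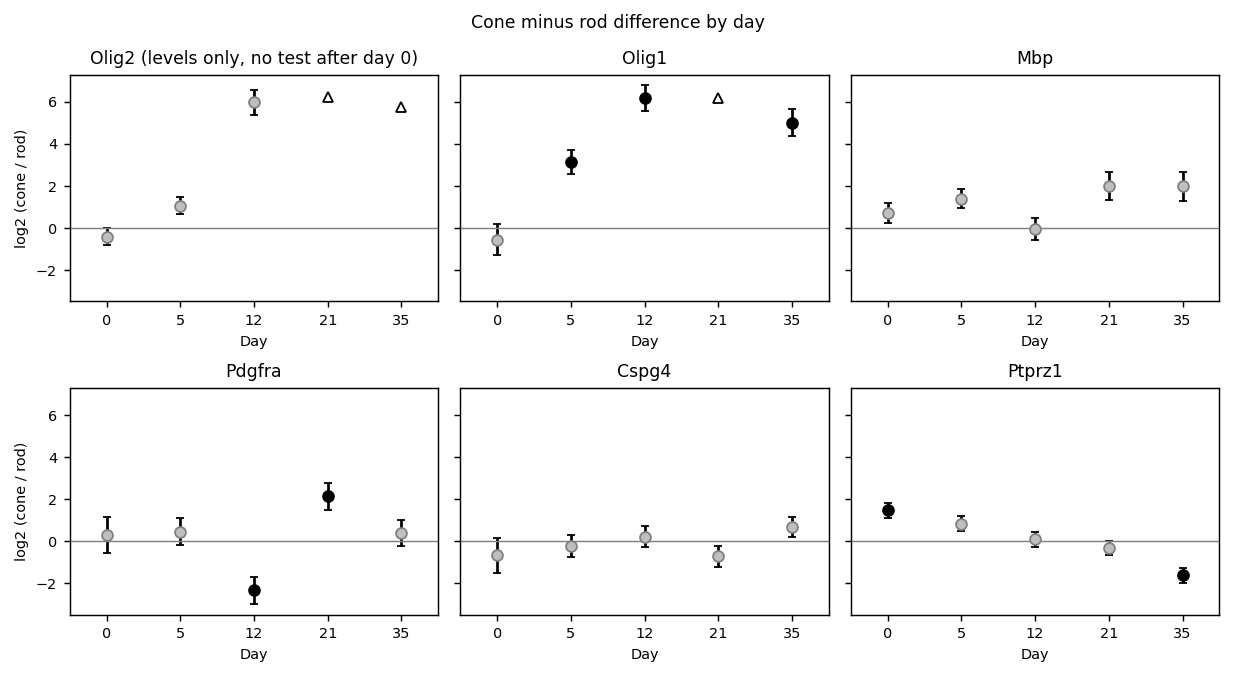
Difference between cone and rod libraries by day on the log2 scale (point, ± SE of the edgeR fit) for the 6 members that passed the filter. Black points were called at an adjusted p under 0.05, grey points were not called or, for Olig2 after day 0, not tested, and open triangles are lower bounds where rod libraries held 1 count or none. Olig1 lies above 3 from day 5 on, Pdgfra lies at -2.33 on day 12 and 2.15 on day 21, and Ptprz1 goes from 1.49 on day 0 to -1.61 on day 35.

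Olig2 and Olig1 lie next to each other on chromosome 16, with 41095 bases between the end of Olig2 and the start of Olig1. Of the 38 genes whose lower coordinate lies within 500 kb of the Olig2 start, 21 were tested. For genes on the minus strand that coordinate is the end of the gene. None of the 19 tested genes besides Olig2 and Olig1 was called higher in cone cells on any day. Their log2 differences between cone and rod ran from -1.23 to 0.49 on day 12, with a median of -0.19 and none called, where 10.1% of all genes were. On day 35 they ran from -1.81 to 0.24 and 1 was called, Eva1c, which was lower in cone cells (-1.09, adjusted p = 0.0377), where 4.51% of all genes were lower. Eva1c was also the 1 called lower on day 21 (-1.30, adjusted p = 0.0200), where 3.14% of all genes were. On day 0 Il10rb, a chain of the interleukin-10 receptor, was called lower in cone primed cells (-1.71, adjusted p = 0.00774), where 4.77% of all genes were. In the mean of days 5 to 35, 5 of the 19 were called lower (Eva1c, Gm7831, Son, Donson and Cryzl1) and 0 higher, against 12.2% and 15.6% of all genes. Of the untested genes, Gm9881, singled out after its counts were seen, lies upstream of Olig2 on the minus strand (chr16:91168197-91171401). It had 21, 22 and 12 counts over the 3 cone libraries of days 12, 21 and 35 and 2, 0 and 0 over the rod libraries, too few to pass the filter.

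**Figure D4:**
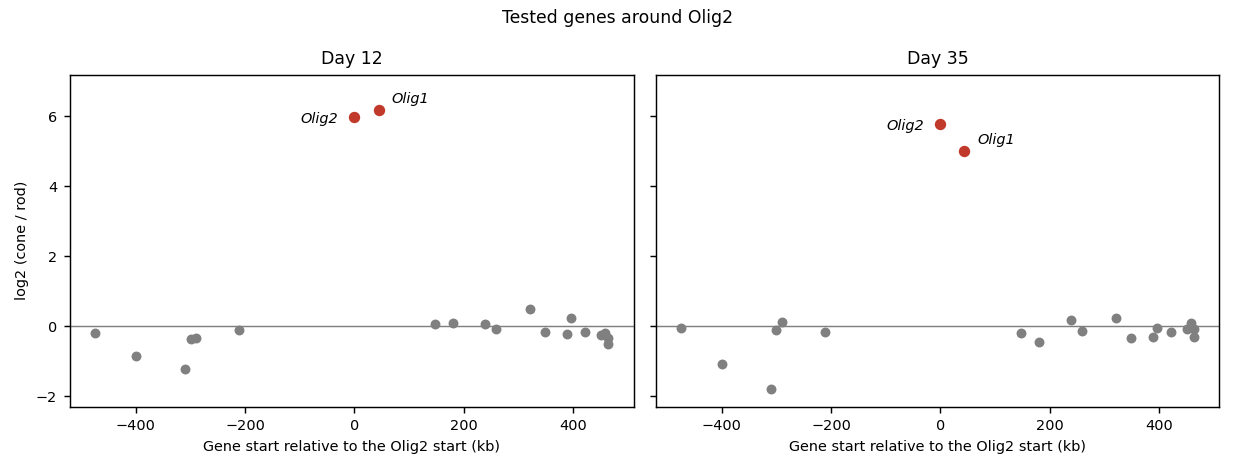
Log2 difference between cone and rod libraries on days 12 and 35 for the 21 tested genes around Olig2. Genes are placed by the distance in kb of their lower coordinate, within 500 kb of the Olig2 start. The axis calls this coordinate the gene start, and on the minus strand it is the gene end. Olig2 (a lower bound on day 35) and Olig1, in red, lie at 5 or above on both days, and the 19 other genes (grey) lie between -1.81 and 0.49.

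Nkx2-2 (ENSMUSG00000027434, chr2:147177546-147194243, minus strand), the homeodomain factor, was close to undetected. It had 22 counts over all 33 libraries and 0 in all 9 libraries of day 0. The cone libraries had 1, 2 and 0 counts on day 5, 4, 4 and 3 on day 12, 0, 1 and 0 on day 21, and 0, 0 and 4 on day 35. Of the rod libraries, 1 on day 21 had 3 counts and the other 11 had 0. Day 12 was the one day on which all 3 cone libraries had counts, 11 in all against 0, which is at least 4.54-fold, with no test since the gene did not pass the filter. The antisense transcript Nkx2-2os, which overlaps it, had at most 2 counts in a library, and whether counting used the strand is not given in the sources used here.

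Pdgfra (ENSMUSG00000029231, chr5:75152292-75198215, plus strand), the receptor for PDGF-A in oligodendrocyte precursors, rose in both cultures and varied widely between libraries of a group. The 9 libraries of day 0 lay between 2.17 and 4.53 CPM. Cone cultures had 30.7, 9.91 and 13.1 CPM on day 5, 18.3, 15.9 and 10.2 on day 12, 48.0, 196 and 102 on day 21, and 65.5, 22.3 and 83.0 on day 35. Rod cultures had 7.41, 15.7 and 15.3 CPM on day 5, 15.8, 161 and 45.6 on day 12, 15.4, 40.1 and 22.6 on day 21, and 75.5, 38.6 and 15.5 on day 35. Every library from day 5 on lay above every library of day 0. Against primed cells, day 35 was higher by 3.95 ± 0.75 on the log2 scale in cone cultures (adjusted p = 6.302e-05) and by 3.86 ± 0.77 in rod cultures (adjusted p = 0.000128).

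Between the cultures, Pdgfra was lower in cone cells on day 12 (-2.33 ± 0.66, adjusted p = 0.0219) and higher on day 21 (2.15 ± 0.64, adjusted p = 0.0337). On day 12 the groups overlapped and rod replicate 2 stood far above the other rod libraries. Without it the difference was -1.06 (adjusted p = 0.349), and the call was also lost without cone replicate 2 (-2.39, adjusted p = 0.0517), without cone replicate 3 (-2.16, adjusted p = 0.108) and in a fit of these 2 groups alone (-2.34, adjusted p = 0.217). On day 21 the groups did not overlap. That call was lost without cone replicate 2 (1.53, adjusted p = 0.182), cone replicate 3 (2.23, adjusted p = 0.0561), rod replicate 1 (1.88, adjusted p = 0.120) or rod replicate 3 (2.06, adjusted p = 0.121).

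Cspg4 (ENSMUSG00000032911, chr9:56865104-56899870, plus strand), the NG2 proteoglycan of precursors and pericytes, rose in both cultures and was not called between them on any day. The 9 libraries of day 0 held 1 to 8 counts each. Cone cultures had 2.87, 1.40 and 1.57 CPM on day 5, 7.93, 3.88 and 3.87 on day 12, 2.89, 4.37 and 4.89 on day 21, and 10.6, 1.46 and 9.60 on day 35. Rod cultures had 2.47, 1.36 and 2.92 CPM on day 5, 4.57, 3.48 and 5.19 on day 12, 5.87, 7.88 and 6.46 on day 21, and 5.61, 3.88 and 4.13 on day 35. Libraries of the 2 cultures overlapped on days 5, 12 and 35, and on day 21 all 3 rod libraries were higher (adjusted p = 0.409). On day 35 Cspg4 was above primed cells by 4.42 ± 0.65 on the log2 scale in cone cultures (adjusted p = 1.782e-06) and by 3.09 ± 0.62 in rod cultures (adjusted p = 0.00013).

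Markers of other cells that carry these receptors moved in the same libraries. The 12 mesenchyme genes (headed by Col1a1 and Postn, with 11 tested and none at 0 in all libraries) summed to 2.80 to 22.3 CPM in untreated cells. In cone cultures their sum was 432 to 564 CPM on day 12, 677 to 1009 on day 21 and 789 to 4626 on day 35, against 117 to 261, 339 to 909 and 477 to 1047 in rod cultures. Of the 10 pericyte genes, Higd1b was at 0 in all libraries, and the sum rose from 5.00 to 10.9 CPM in untreated cells to 58.8 to 171 in cone and 88.3 to 105 in rod cultures on day 35. These genes did not all rise. Most of the day 35 sum was Notch3 (means of 34.0 CPM in cone and 41.1 in rod cells), Rgs5 (20.0 and 34.85) and Pdgfrb (64.7 and 12.6). Kcnj8, Des and Vtn did not exceed a mean of 0.313 CPM on day 35 in either culture, and Ndufa4l2 was at 0.762 and 0.085. Cone day 35 replicate 2 was the lowest of its group for Pdgfra, Cspg4, the mesenchyme sum (789 against 3674 and 4626 CPM) and the pericyte sum (58.8 against 159 and 171 CPM). Rod day 12 replicate 2, with the highest Pdgfra of its group, had the lowest mesenchyme sum of its group (117 against 184 and 261 CPM). A list of 10 astrocyte genes, headed by Slc1a3 and Slc1a2, summed to 300 to 380 CPM in untreated cells. On day 12 its sum was 788 to 1216 CPM in cone and 914 to 958.5 in rod libraries. On day 21 it was 1212 to 1538 and 746 to 943, and on day 35 930 to 1118 and 930 to 1276. The untreated sum was mostly Slc1a2, with a mean of 267 CPM, against 86.8 in cone and 27.7 in rod cells on day 21. The other genes of the list had higher means on day 21 than in untreated cells in both cultures. Gfap was at 0 CPM in untreated, 278 in cone and 105.5 in rod cells. Pax2 was at 0.776, 118 and 128 CPM in these groups, and Slc1a3 at 70.9, 737 and 496.5. Replicate 2 of cone day 21, the highest of its group for Pdgfra, had its highest astrocyte sum. Replicate 2 of rod day 12 had the lowest astrocyte sum of its group by a small margin (914 against 917 and 958.5 CPM). The part of these cells in the Pdgfra and Cspg4 levels was not tested.

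**Figure D5:**
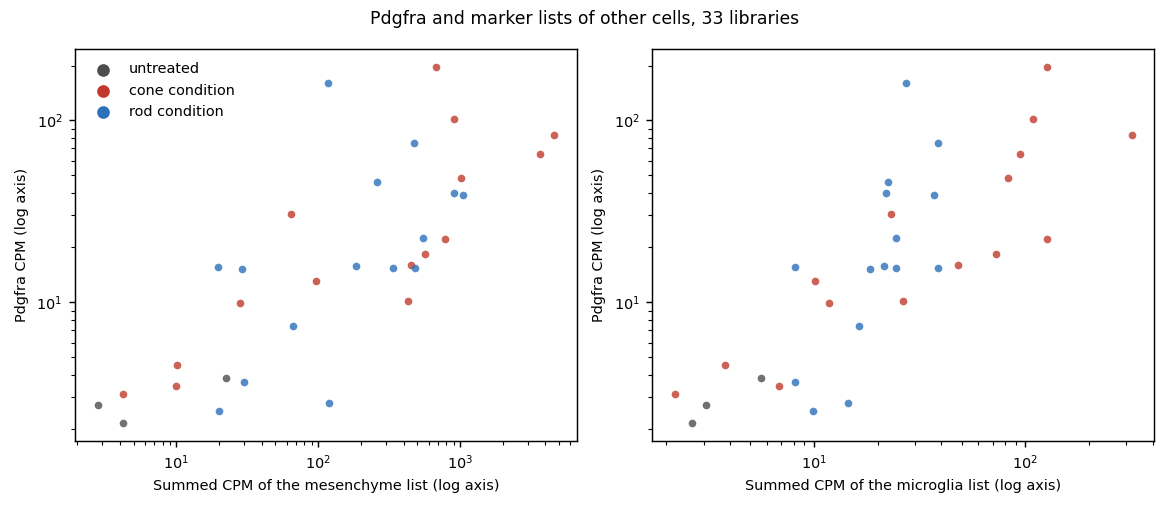
Pdgfra level (CPM, log axis) against the summed level of 12 mesenchyme genes (left) and 10 microglia genes (right), in CPM on log axes, for each of the 33 libraries. The libraries of day 0 lie at the bottom of both panels with Pdgfra below 5 CPM, and rod day 12 replicate 2 stands out at 161 CPM of Pdgfra with 117 CPM of the mesenchyme list.

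The other genes of the PDGF family, a list of 6 with all 6 tested, had none called on day 0 or 5, with median log2 differences of -0.36 and -0.10, where 7.27% and 9.28% of all genes were called. They were called higher in cone than in rod cells for 3 genes on day 12, 1 on day 21, 4 on day 35 and 5 in the mean of days 5 to 35, and lower for 0. Of all genes tested, 5.98%, 5.86%, 7.77% and 15.6% were called higher in these comparisons. The median log2 difference of the 6 genes in these was 1.36, 0.82, 1.15 and 0.82, and that over all genes was between -0.01 and 0.03. Pdgfrb, the receptor of pericytes and other mural cells, had 1012, 195 and 1126 counts in cone and 113, 191 and 196 in rod libraries on day 35. Its difference was 2.36 ± 0.50 on the log2 scale (adjusted p = 0.00184), with no overlap after scaling by library size. Pdgfrb is also a member of the pericyte list.

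Ptprz1 (ENSMUSG00000068748, chr6:22875502-23052916, plus strand), a receptor phosphatase of glial progenitors that binds pleiotrophin, was the member with the highest level per kb of exon in untreated cells (5.81 CPM). Untreated cells had 87.5, 74.0 and 86.7 CPM and cone primed cells 83.3, 97.7 and 77.5, and rod primed cells had 29.8, 29.9 and 32.3. Rod primed cells lay far below both other groups with no overlap, as 29.5% of all genes did between cone and rod primed cells and 33.6% between rod primed and untreated cells. Ptprz1 was lower in rod primed than in untreated cells (-1.43 ± 0.36 on the log2 scale, adjusted p = 0.0103), and it was higher in cone than in rod primed cells by 1.49 ± 0.36 (adjusted p = 0.0097). It was the 1 member of 6 called after rod priming, where 10.3% of all genes were called. Cone priming against untreated cells gave 0 called members and 0 called genes (0.0%) in edgeR. At an unadjusted p under 0.05 there were 200 genes, with none of the members among them. That is a smaller share of the genes tested than the 0.05 that would pass with no difference, so the fit may miss differences there. DESeq2 and limma-voom with sample weights also called 0 genes there, and limma on log2(TPM + 1) called 7.

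In culture the order of the groups turned around. Cone cultures had 76.8, 35.6 and 39.6 CPM of Ptprz1 on day 5, 104, 56.1 and 36.3 on day 12, 23.0, 72.3 and 57.9 on day 21, and 21.9, 32.9 and 22.8 on day 35. Rod cultures had 26.7, 38.6 and 19.9 CPM on day 5, 49.3, 62.5 and 71.5 on day 12, 55.8, 66.2 and 70.0 on day 21, and 53.4, 83.0 and 101 on day 35. Libraries of the 2 cultures overlapped on days 5, 12 and 21, and on day 35 every rod library lay above every cone library. The difference on day 35 was -1.61 ± 0.36 (adjusted p = 0.00288). From primed cells to day 35, Ptprz1 fell in cone cultures (-1.74 ± 0.36, adjusted p = 0.00016) and rose in rod cultures (1.36 ± 0.36, adjusted p = 0.00196).

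Mbp (ENSMUSG00000041607, chr18:82475146-82585637, plus strand), named for the protein of compact myelin, was high on day 0 and fell in both cultures. Untreated cells had 22.5, 20.8 and 26.6 CPM, cone primed cells 20.3, 29.0 and 22.7, and rod primed cells 15.1, 14.0 and 15.1. Every rod primed library lay below every untreated and every cone primed library. Of all genes, 33.6% had no overlap between rod primed and untreated cells and 29.5% between cone and rod primed cells. Neither difference of Mbp was called in edgeR's test (adjusted p of 0.4115 and 0.4212 in that order). Cone cultures had 23.9, 29.6 and 26.0 CPM on day 5, 3.85, 6.68 and 1.39 on day 12, 0.918, 3.68 and 2.07 on day 21, and 0.768, 2.06 and 3.23 on day 35. Rod cultures had 10.1, 8.51 and 11.5 CPM on day 5, 1.36, 6.69 and 4.33 on day 12, 0.309, 1.39 and 0.0652 on day 21, and 0.510, 0.647 and 0.387 on day 35. The level on day 35 was below that of primed cells in all libraries, by 3.56 ± 0.54 on the log2 scale in cone cultures (-3.56, adjusted p = 2.64e-06) and by 4.83 ± 0.64 in rod cultures (-4.83, adjusted p = 3.917e-07).

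Mbp was higher in cone than in rod cells in the mean of days 5 to 35 (1.33 ± 0.30, adjusted p = 0.00139). By day, the difference was 1.40 ± 0.47 on day 5 (adjusted p = 0.0583), 2.00 ± 0.68 on day 21 (adjusted p = 0.0661) and 1.98 ± 0.71 on day 35 (adjusted p = 0.0669), none of them called. On day 12 the means were 3.97 and 4.12 CPM. With DESeq2 the adjusted p was 0.0494 on day 5, 0.0184 on day 21 and 0.0153 on day 35. The counts are per gene, so golli and myelin transcripts of Mbp are not separated, and the pseudogene Rpl21-ps8, with 17 to 84 counts in a library, lies within Mbp on the opposite strand.

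Markers of neurogenic progenitors, a known site of Olig2 in the embryonic retina, had lower summed levels in both cultures than in untreated cells from day 12 on. The 12 genes of that list, headed by Btg2 and Onecut2 and none at 0 in all libraries, summed to 593.5 to 718.5 CPM in untreated cells. Their sum was 501 to 596 CPM in cone and 423 to 455 in rod libraries on day 5. On day 12 it was 160 to 188.5 and 194 to 321, and on day 21 217 to 230 and 184 to 237. On day 35 it was 217 to 289 and 197 to 300.2. Cone and rod libraries did not overlap in this sum on days 5 and 12, with rod the lower on day 5 and the higher on day 12. The libraries overlapped in this sum on days 21 and 35, while single genes of the list differed by mean in both directions. On day 21 Neurog2 was at 25.6 CPM in cone and 7.41 in rod cells, and Onecut2 at 17.8 and 32.2. Much of the late sum was Btg2, with a mean of 179 CPM in untreated, 158 in cone and 128 in rod cells of day 35. Gadd45a was at 27.9, 48.2 and 30.15 CPM in the same groups, Insm1 at 71.3, 1.37 and 1.77, and Atoh7 at 8.96, 0 and 0. The other genes of the list had lower means on day 35 than in untreated cells in both cultures. The part of neurogenic progenitors in the levels of Olig2 and Mbp was not tested.

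From primed cells to day 35, 5 of 5 members tested were called in cone cultures, where 57.7% of all genes were. In rod cultures 4 of 5 were called, all but Olig1, where 55.6% of all genes were. The gap between cone and rod libraries varied over days 0 to 35, by an interaction test, for Olig1 (adjusted p = 0.000127), Ptprz1 (adjusted p = 0.00173) and Pdgfra (adjusted p = 0.0239), where 9.22% of all genes passed. Mbp (adjusted p = 0.254) and Cspg4 (adjusted p = 0.518) did not pass. Without replicate 3 of every group none of the 3 calls remained (adjusted p of 0.0510, 0.235 and 0.494 in that order). Without replicate 2 the adjusted p was 0.0657 for Olig1 and 0.206 for Pdgfra.

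Other genes of the lineage were taken from lists of oligodendrocyte precursor, differentiation and myelin genes, 59 in all without the members, of which 43 were tested. They did not move as 1 group, and the number called moved with single libraries. Of the 43, 6 were called on day 0, and 3 without cone primed replicate 1, cone primed replicate 3 or rod primed replicate 3, and 4 where replicate 1 or 2 of the rod primed cells was left out. On day 5 it was 8, and 5 without cone replicate 1 or 2. On day 21 it was 8, and 1 without cone replicate 3 or rod replicate 2, 3 without rod replicate 3, and 4 without cone replicate 1 or rod replicate 1. On day 35 it was 10, and 5 without rod replicate 1. Of the 19 precursor genes tested, 0 were called higher in cone cells and 5 lower on day 0, 0 and 5 on day 5, 1 and 4 on day 12, 3 and 1 on day 21, 2 and 4 on day 35, and 6 and 7 in the mean of days 5 to 35. In the mean of those days, 15.6% of all genes were called higher and 12.2% lower. On day 0 the called genes were 2.5% higher and 4.77% lower of all genes, on day 5 3.48% and 5.8%, on day 12 5.98% and 4.12%, on day 21 5.86% and 3.14%, and on day 35 7.77% and 4.51%. The median log2 difference of the precursor genes was 0.01 on day 0, -0.34 on day 5, -0.48 on day 12, 0.42 on day 21 and 0.17 on day 35.

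The precursor genes that were lower in cone cells include Bcan, a brain proteoglycan, Ednrb, the endothelin B receptor, and Cntn1, an axonal and glial adhesion protein. Bcan had 7, 25 and 11 counts in cone primed libraries and 190, 230 and 276 in rod primed libraries (-4.11 ± 0.62, adjusted p = 7.72e-05). It was also called lower in cone cells on day 5 (19.1 against 152 CPM, adjusted p = 0.000115) and day 35 (-2.13 ± 0.45, adjusted p = 0.00187). Ednrb had a mean of 6.42 CPM after cone and 30.2 after rod priming (-2.23 ± 0.37, adjusted p = 0.000269), and at 20.6 and 109 CPM on day 5 (-2.41 ± 0.34, adjusted p = 2.944e-05). Sulf1, a sulfatase that edits heparan sulfate, was also lower on day 0 (-2.14 ± 0.33, adjusted p = 0.000123). Cntn1 had a mean of 233 CPM in the cone libraries of day 12 and of 790 in the rod libraries (-1.77 ± 0.20, adjusted p = 1.113e-06). Ednrb (-1.70 ± 0.33, adjusted p = 0.000895) and the differentiation gene Gpr37, a receptor (-1.67 ± 0.30, adjusted p = 0.000544), were lower in cone cells that day too. Several of these genes are also expressed by astrocytes and Müller glia. The 10 Müller glia genes summed to 1180 to 1476 CPM in cone primed and 2160 to 2556 CPM in rod primed cells, and overlapped between the cultures on day 12 (4179 to 4938 CPM in cone and 3285 to 5055 in rod) and on day 35 (6492 to 7029 and 5661 to 8364). On day 5 the sum was 2004 to 2339 CPM in cone and 2834 to 3330 in rod libraries. On day 12 the genes of this list went both ways by mean. Dkk3 (921 CPM in cone against 1691 in rod), Rlbp1 (47.8 against 133), Kcnj10, Abca8a and Car2 were lower in cone cells. Vim (2084 against 1138), Apoe (401 against 264), Crym and Slc1a3 were higher, and Glul was at 153 and 155 CPM. The part of astrocytes and Müller glia in the differences was not tested.

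Among the 6 lineage genes called higher in cone cells on day 12 were Susd5, a membrane protein, and Opalin, a membrane protein of myelinating oligodendrocytes. Opalin had 15, 24 and 45 counts in the cone libraries of day 12 and 0, 0 and 1 in the rod libraries, a ratio of 104 with a counting interval of 18.2 to 4152 (adjusted p = 0.000158). Opalin then had 2, 3 and 7 counts in cone libraries on day 21 and 1 in each on day 35. Susd5 had 9, 23 and 34 counts in cone and 0, 5 and 3 in rod libraries on day 12 (3.23 ± 0.73, adjusted p = 0.00476), and the call was lost in a fit of these 2 groups alone (adjusted p = 0.120). Gpr37 was not called in that fit either (adjusted p = 0.0534).

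Of the 10 myelin genes tested, 3 were called higher and 0 lower in cone cells on day 12, 2 and 2 on day 21, and 1 and 2 on day 35. Of all genes, 5.98% were higher and 4.12% lower on day 12, 5.86% and 3.14% on day 21, and 7.77% and 4.51% on day 35. Cldn11, the claudin of myelin that other cells also use, had 5, 0 and 2 counts in cone and 18, 63 and 37 in rod libraries on day 35 (-3.87 ± 0.92, adjusted p = 0.00549). Gsn, which codes for the actin-severing protein gelsolin, was lower in cone cells on day 5 (-1.63 ± 0.36, adjusted p = 0.00349) and was higher on day 12 (61.7 against 27.5 CPM, 1.17 ± 0.33, adjusted p = 0.0214) and on day 35 (173 against 72.7 CPM, 1.25 ± 0.32, adjusted p = 0.009995). The calls of Cldn11, Opalin, Sox6 and Trf on day 21 and of Tnr and Ugt8a on day 35 were each lost without at least 1 library, and that of Trf without any 1 of the 6.

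The genes whose pattern was most like each member were found by Pearson's r of log2 CPM over the 33 libraries, which share treatment and day, and are given as a description. For Olig2 the 10 highest were Igf2bp3 (r = 0.92), Olfm1 (0.88), Xylt1 (0.88), Stk32b, Cerk, Smpdl3a, Crtac1, Wscd1, Plag1 and Lbh (0.83). Igf2bp3, an RNA-binding protein of embryonic tissue, was at 44.1 CPM in untreated cells, 25.1 in cone and 5.31 in rod cells on day 35. For Olig1 they were Lama3 (0.91), Rgs8 (0.85) and Lurap1l (0.83). Lama3, a laminin chain, was at 2.48 CPM in untreated cells, 14.2 in cone and 0.757 in rod cells on day 12. Olig1 and Olig2 had r = 0.65 with each other.

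Mbp was most like Gngt2 (0.96), a transducin subunit of cones, Amer2 (0.96) and Peli2 (0.96). Gngt2 was at 74.1 CPM in untreated cells and 0.629 in cone cells on day 35. Cspg4 was most like Eln (0.94), which codes for elastin, Tgfb1i1 (0.93) and Aox1 (0.93). For Pdgfra the closest were Mfap2 (0.90), a microfibril protein, Tef (0.89) and Igf2 (0.89). Ptprz1 had no close match, with Ndst3 (0.76), Fchsd2 (0.67) and Fat4 (0.65) the highest. Between members, r was 0.80 for Pdgfra and Cspg4 and 0.70 for Olig2 and Mbp.

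The authors' deposited TPM values gave far fewer calls for the same genes. With limma on log2(TPM + 1), Olig1 remained called on day 12 (1.83, adjusted p = 0.0135) and in the mean of days 5 to 35, and no other member was called between cone and rod cells on any day. TPM was listed at 0 in 24 of 33 libraries for Mbp although up to 359 reads were counted there. The same held for Olig2 in 8 libraries with up to 132 reads and for Pdgfra in 14 with up to 240, so an exact 0 can be a failed estimate.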

How the data were processed

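Reads of 33 libraries were aligned and counted by the authors. The submitters' processing notes name HISAT2, StringTie, HTSeq and the genome build GRCm38, with no versions, roles or strand setting. The deposited files hold raw counts per gene and, per the file headers, TPM for each library. The share of reads in gene rows was 26.9% to 34.9%, and 5 summary lines per file were left out. The counts were fitted with edgeR 4.0.16 (R 4.3.3): trimmed-mean scaling, filterByExpr by group with a minimum count of 10, one quasi-likelihood model with a mean per group over all 33 libraries, and Benjamini-Hochberg adjustment over 18150 of 32488 genes with any count. The SE is the log2 fold change divided by the root of F. The fit was also run on counts simulated from its own model, which checks the code and cannot check that model. limma 3.58.1 and DESeq2 1.42.0 served for alternatives.

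The members and gene lists were chosen with earlier results of these data known. Named are the 7 members; per cone and rod comparison at most the 3 largest called rises and falls of the lineage and PDGF lists; the 10 genes most like Olig2 and 3 most like each other member by Pearson's r (mean log2 CPM of at least 0); genes within 500000 bases of Olig2; and leading markers of other cells. Groups with 0 to 3 counts are given as bounds or ratios. Exon lengths came from GENCODE M21, in which 47310 of 47729 gene IDs were found. No 2 libraries agreed within sampling noise. Values of a few listed genes are not reported here.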

Additional observations from a re-analysis of the deposited data

Results flagged for a closer look

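The gap between cone and rod libraries varied over the days, by an F test of the interaction in edgeR, for Olig1 (adjusted p = 0.0001271), Ptprz1 (adjusted p = 0.001725) and Pdgfra (adjusted p = 0.02392). Olig1 went from no call at day 0 to higher in cone cells at every later day, Ptprz1 from higher in cone cells at day 0 to lower at day 35, and Pdgfra from lower at day 12 to higher at day 21. None of the 3 calls remained without replicate 3 of every group (adjusted p of 0.0510 for Olig1, 0.235 for Ptprz1 and 0.494 for Pdgfra), and without replicate 2 those of Olig1 (0.0657) and Pdgfra (0.206) were lost. The Pdgfra difference at day 12 was -1.06 (adjusted p = 0.349) without rod replicate 2, and its call at day 21 was lost without any 1 of 4 libraries.

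Nkx2-2, which was below the count filter, had 11 counts over the 3 cone libraries of day 12 and 0 over the 3 rod libraries of that day and over the 9 libraries of day 0.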

How the results depend on the processing

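The numbers of members called (of those tested) and of other lineage genes called were recomputed under 8 other settings and without each library. On log2(TPM + 1) the members called fell to 0 at days 0, 5, 21 and 35, for the change with day, for rod primed against untreated and for both cultures at day 35 against primed cells, and to 1 at day 12 and in the mean; other lineage genes fell to 0 at days 0, 21 and 35, 3 at day 5, 1 at day 12 and 4 in the mean. TPM also reversed Olig2 at day 0 (0.175), in cone culture at day 35 (1.036) and in rod culture at day 5 against primed cells (0.281), Mbp at day 35 (-0.04667) and in rod culture at day 35 against primed cells (0.04667), Sulf1 at day 0 (0.00898) and Tnr at day 35 (-0.006156). With voom and sample weights, 2 members were called at day 0 and after rod priming and 3 at day 5, and 11, 13, 21 and 18 other lineage genes at days 0, 5, 12 and 21. In a fit of the compared groups alone, 2 members were called at days 0 and 5 and after rod priming and 1 at day 12, and 11, 17, 3, 5 and 6 other lineage genes at days 0, 5, 12, 21 and 35. Without the count filter, with a mean of at least 1 CPM and with DESeq2, 2 members were called at day 5 in place of 1. Mbp also passed the threshold with DESeq2 at days 21 and 35, where the main fit did not call it. The causes were not tested.

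Leaving out a library (for the mean and the change with day, 1 replicate number of every group) gave 1 to 2 members at day 12 (2 with all libraries), 1 to 3 at day 21 (2), 2 to 3 at day 35 (2), 2 to 3 in the mean (2), 4 to 5 in rod culture at day 35 (4) and 0 to 3 for the change with day (3), and other counts of members did not move. Other lineage genes ranged from 3 to 6 at day 0 (6), 5 to 8 at day 5 (8), 8 to 14 at day 12 (11), 1 to 6 at day 21 (8), 5 to 10 at day 35 (10) and 17 to 20 in the mean (24). The replicate numbers did not pair the libraries: same-number correlations ran from -0.20 to 0.48 and in 0 of 15 comparisons were all over 0.1. With the replicate block, 2 members were called at day 5 (Mbp and Olig1) in place of 1, and Mbp was also called at days 21 (adjusted p = 0.0486) and 35 (adjusted p = 0.0491). Low counts limit Nkx2-2, and Olig1 and Olig2 in late rod cultures.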

Other observations

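Microglia genes moved with the cultures too. The 10 genes of the list summed to 2.65 to 5.63 CPM in untreated cells. At day 35 their sum was 94.5 to 318 CPM in cone and 37.0 to 38.5 CPM in rod libraries. Of the 8 tested, 7 were called higher in cone cells at day 21, where 5.86% of all genes were, and 7 at day 35, where 7.77% were, and 0 were called lower on these days.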
